A study of Mus musculus with 4 samples.

Results

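The skeletal muscle and myogenic genes described here are 44 genes of the sarcomere, calcium release, muscle metabolism, fibre type and myogenic control, taken by symbol from the 28440 rows of a table of counts per gene. All 44 were found in the table. By known role they fall into 7 pan-striated sarcomere and Z-disc genes, 12 genes of the fast fibre sarcomere, 5 of the slow fibre sarcomere, 4 embryonic or fetal genes, 7 genes of calcium release and uptake, 3 of muscle metabolism, 5 myogenic and satellite cell factors, and 1 receptor subunit of the endplate. The samples were 4 mammary gland tumours of 1 genotype, MMTV-R26Met, numbered 1 to 4 as labelled, and the series holds no other group. In this mouse model a Cre recombinase driven by the MMTV promoter, which is active mainly in mammary epithelium, switches on a Met receptor transgene at the Rosa26 locus, and all 4 tumours share both alleles. The labels give no age and do not state if each tumour was from a mouse of its own, so the p-values below describe the spread among these 4 tumours only.

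Muscle fibres contract when calcium, released from an internal store, lets myosin heads pull on actin filaments within repeating units called sarcomeres. Fast and slow fibres use different genes for myosin, troponin and calcium handling, and developing fibres use embryonic and fetal forms first. The factors Myf5, Myod1, Myog and Myf6 drive a cell into the muscle programme, and Pax7 marks the satellite cells that repair adult muscle. The mammary gland has myoepithelial cells, which contract with smooth muscle proteins, but no skeletal muscle of its own.

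The 4 libraries held 42809015, 35220504, 36885892 and 41756363 counts, and each pair differed beyond counting error (chi-square per degree of freedom 142 to 415), so none was a copy of another. Levels are given as raw counts or as CPM, which are counts relative to library size after TMM scaling. At these depths a count of 0 allows up to 3 counts, or 0.0707 to 0.0868 CPM. Epithelial transcripts were present in all 4 tumours: 7 markers of a mammary epithelium list summed to 2627, 4083, 3594 and 4375 CPM. Met, the transgene of the model and the remaining gene of that list, had 3751, 2387, 2438 and 1793 CPM.

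Skeletal muscle transcripts were concentrated in tumour 3. The 44 genes together had 1677, 3544, 111101 and 2765 counts in tumours 1 to 4. Tumour 3 thus held 0.301% of its counts in these genes (exact binomial 95% interval 0.299 to 0.303, which like all intervals here covers counting error only). The share was 0.00392%, 0.0101% and 0.00662% in tumours 1, 2 and 4. Tumour 3 was the highest of the 4 for 42 of the 44 genes, and the exceptions were Ldb3 and Mb, both highest in tumour 2. Tumour 3 was the highest tumour for 29.9% of all tested genes. In bulk RNA, more muscle cells and more muscle RNA per cell cannot be told apart.

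Each gene with at least 40 counts over the 4 tumours was then tested in edgeR for how far its level varied from tumour to tumour, set against the trend of genes at the same level. Of 17683 genes tested, 861 (4.87%) passed at an adjusted p of 0.05, and 345 (1.95%) passed with tumour 3 as their highest. Of the 44 muscle genes 38 were tested and 28 passed, all 28 with tumour 3 highest. DESeq2 was used without a test, only to flag genes whose spread (dispersion) lay far above its fitted trend. It flagged 22 of the 28. The other 10 tested genes did not pass, and 6 genes (Myh3, Chrng, Ckmt2, Myod1, Myf5 and Pax7) lay below the count minimum. Without tumour 3, only 18 of the 44 genes reached the same minimum per library, so most entered the test through the tumour in which they were high, and the count of 28 describes the list and does not test it. The highest tumour exceeded the next by a median of 73.2-fold over the 38 tested muscle genes and by 1.20-fold over all genes tested. A gap of at least 10-fold was seen for 28 of the 38, and for 1.7% of all genes tested. Of the 50 genes with the smallest p among those highest in tumour 3, 19 were among the 44. Of all 345 genes that passed with tumour 3 highest, 8.12% were. Like the 28, the 19 describe the list and do not test it. All of this rests on 1 tumour: without tumour 3, Mybpc2 was the only muscle gene that passed (edgeR adjusted p = 0.0145, against 3.96e-15 with all 4 tumours and 3.69e-16 as the smallest over the alternatives).

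**Figure D1:**
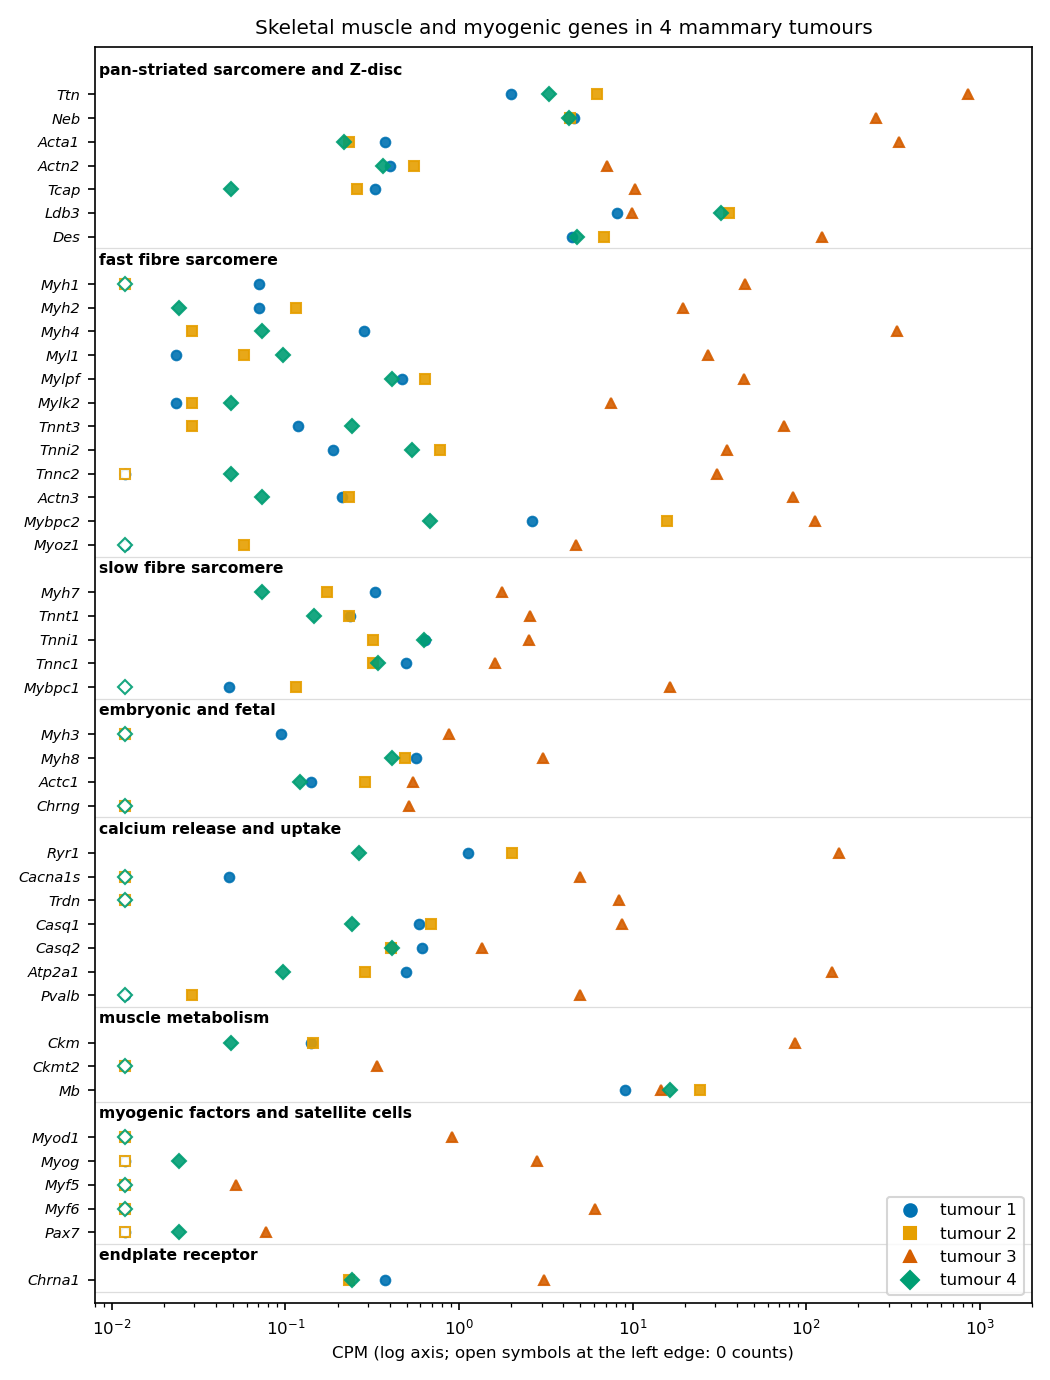
CPM (log axis) of each of the 44 genes in the 4 tumours, in rows grouped by role, with open symbols at the left edge for 0 counts (coinciding symbols overlap). The triangles of tumour 3 lie to the right of the other symbols for 42 genes, and Ldb3 and Mb are the exceptions.

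The 12 genes of the fast fibre sarcomere were all tested and all passed in edgeR, with a median gap of 225.2-fold between tumour 3 and the next tumour. DESeq2 flagged 10 of the 12, and not Mylk2 and Myoz1. The leading gene was Myh4, the heavy chain of the fastest fibre type, IIb (Entrez gene 17884, chromosome 11, 67237812 to 67260447, GRCm38). Myh4 had 12, 1, 12809 and 3 counts in tumours 1 to 4. Tumour 3 alone was high, at 333 CPM, 1177-fold above tumour 1 (95% interval 673 to 2278; edgeR adjusted p = 1.11e-55). Myh1, the heavy chain of type IIx fibres, had 3, 0, 1715 and 0 counts (edgeR adjusted p = 4.1e-21). Myh2, the heavy chain of type IIa fibres, had 3, 4, 756 and 1 (edgeR adjusted p = 5.3e-10). In both, 3 tumours lay at or within a few counts of 0 and did not overlap with tumour 3.

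The 250 bases before the start of Myh4 and of its neighbours Myh1 and Myh8 on chromosome 11, and of Acta1 on chromosome 8, are shown because these genes differed widely in tumour 3: 12809, 1715, 117 and 13166 counts. The sequences are from RefSeq (GRCm38.p6), each 5′ to 3′ on the gene's strand, at chr11:67237562-67237811 (plus), chr11:67199852-67200101 (plus), chr11:67276874-67277123 (plus) and chr8:123894776-123895025 (minus). Capitals mark matches on either strand to the E-box CANNTG, which MyoD family factors are known to bind, to the MEF2 site, to the CArG box bound by serum response factor, and to TATAAA.
Myh4: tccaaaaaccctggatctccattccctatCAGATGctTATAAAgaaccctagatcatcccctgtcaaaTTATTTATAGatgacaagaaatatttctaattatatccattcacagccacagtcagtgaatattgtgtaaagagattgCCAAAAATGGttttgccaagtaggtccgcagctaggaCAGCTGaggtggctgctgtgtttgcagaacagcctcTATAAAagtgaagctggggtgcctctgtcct
Myh1: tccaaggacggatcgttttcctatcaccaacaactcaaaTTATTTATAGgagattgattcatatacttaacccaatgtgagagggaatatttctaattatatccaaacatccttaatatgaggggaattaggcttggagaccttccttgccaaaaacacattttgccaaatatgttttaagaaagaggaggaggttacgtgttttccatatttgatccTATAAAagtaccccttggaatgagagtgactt
Myh8: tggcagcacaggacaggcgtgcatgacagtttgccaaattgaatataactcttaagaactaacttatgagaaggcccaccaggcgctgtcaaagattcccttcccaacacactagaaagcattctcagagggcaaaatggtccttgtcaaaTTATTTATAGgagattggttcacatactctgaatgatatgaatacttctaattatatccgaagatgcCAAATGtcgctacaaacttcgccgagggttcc
Acta1: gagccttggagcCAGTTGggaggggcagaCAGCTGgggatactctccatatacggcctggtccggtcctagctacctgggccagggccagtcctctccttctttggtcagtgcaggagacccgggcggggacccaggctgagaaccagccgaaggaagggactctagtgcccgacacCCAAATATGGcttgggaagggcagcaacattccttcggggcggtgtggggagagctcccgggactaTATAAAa

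Positions are counted back from -1, the base before the start. Myh4 held an E-box at -221 to -216 and another at -67 to -62, a MEF2 site at -182 to -173, a CArG box at -104 to -95 and TATAAA at -213 to -208 and at -31 to -26. Myh1 held a MEF2 site at -211 to -202 and TATAAA at -32 to -27, and no E-box or CArG box within the bases shown. Myh8 held a MEF2 site at -99 to -90 and an E-box at -32 to -27. The MEF2 site was the same run of letters in all 3 myosin genes and in each overlapped a TATAAA match on the other strand. It lay inside longer shared runs of 22 bases between Myh1 and Myh8 and of 17 bases between Myh4 and Myh8. Myh4 and Myh1 also shared a run of 20 bases further on, with no marked motif in it. Acta1 held E-boxes at -238 to -233 and -221 to -216, a CArG box at -73 to -64 and TATAAA at -7 to -2.

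RefSeq windows from 250 bases before to 50 after the start were found for 34 of the 44 genes (40 windows, since some genes have several). The MEF2 site was in 6 of these 40 windows (15.0%) and in 3.19% of all 32851 windows, and the CArG box in 12.5% and 1.63%. The E-box CAGCTG, which is 1 form of CANNTG, was in 17 of 40 (42.5%) against 16.3%, and CANNTG of any form in 80.0% against 72.3%. TATAAA was in 25.0% against 13.6%, and the MCAT element CATTCC in 22.5% against 14.7%. Windows of 1 gene can overlap and hold the same site, as for the CArG box of Ldb3. By gene, the MEF2 site was in 6 of the 34, the CArG box in 4 and CAGCTG in 15. Among the 19 of these genes that passed in edgeR, the numbers were 4, 2 and 10. The share over all windows was not counted by gene. These matches are descriptions of letters, not of binding.

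Within the myosin heavy chain family, tumour 3 was almost wholly fast. Of 15499 counts in Myh1, Myh2, Myh3, Myh4, Myh7 and Myh8, 98.6% (exact 95% interval 98.4 to 98.8) belonged to the fast genes Myh1, Myh2 and Myh4. Myh4 alone took 82.6%, Myh1 11.1%, Myh2 4.88%, Myh8 0.755%, Myh7 0.439% and Myh3 0.219%. In tumours 1, 2 and 4 the fast share was 30% of 60 counts (18.85 to 43.2), 17.9% of 28 counts (6.06 to 36.9) and 16.7% of 24 counts (4.74 to 37.4). In each of these, Myh8, the perinatal form, was the largest of the 6, with 24, 17 and 17 counts. Restricting the family to its 4 adult genes gave a fast share of 99.6% in tumour 3, and 56.25%, 45.45% and 57.1% of 32, 11 and 7 counts in tumours 1, 2 and 4.

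Most of these genes sit side by side. The cluster of Myh3, Myh2, Myh1, Myh4, Myh8 and Myh13 covers 293.3 kb of chromosome 11 (67078273 to 67371587, GRCm38). In that order tumour 3 had 34, 756, 1715, 12809, 117 and 1 counts. The level thus differed over short distances: Myh4 lies 13.2 kb from Myh1 and 16.7 kb from Myh8. Counts of Myh1 and Myh2 may include reads of antisense genes on the other strand (494 and 237 bases of exon overlap), since the use of strand in counting is not given in the sources used here. The heavy chains are also alike in sequence, so the split of counts among them carries that uncertainty.

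**Figure D2:**
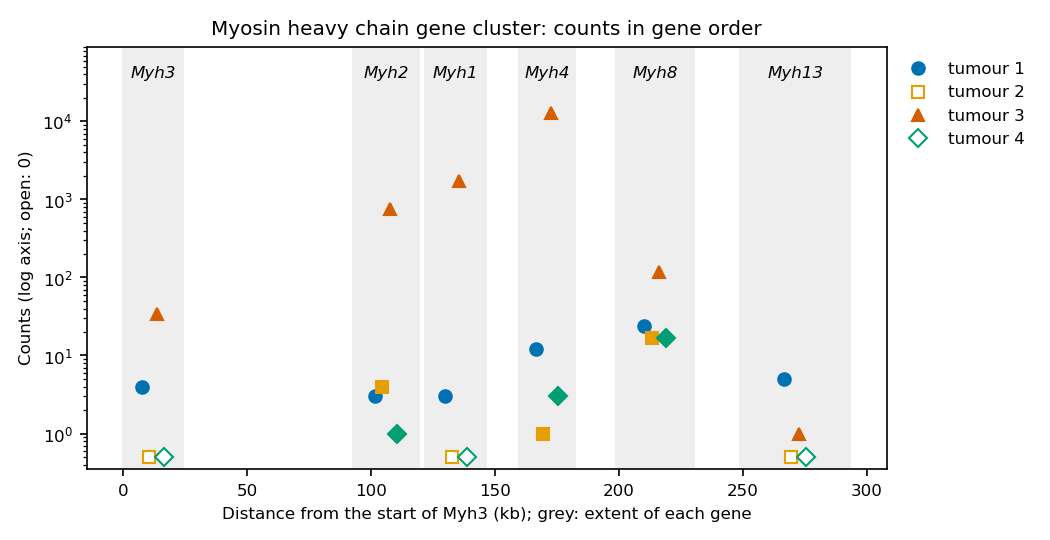
Counts (log axis, open symbols for 0) of the 6 genes of the myosin heavy chain cluster, placed by distance in kb from the start of Myh3, with grey bands for the extent of each gene. Tumour 3 reaches 12809 counts at Myh4 and 117 at the adjoining Myh8, where the other tumours have 17 to 24.

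The other fast sarcomere genes followed Myh4. Myl1, the fast essential light chain, had 1, 2, 1052 and 4 counts in tumours 1 to 4 (edgeR adjusted p = 6.33e-13). Mylpf, the fast regulatory light chain, had 20, 22, 1688 and 17 (edgeR adjusted p = 1.89e-10). Mylk2, the kinase of that light chain in skeletal muscle, had 1, 1, 288 and 2 (edgeR adjusted p = 3e-06). Tumour 3 stood alone in each, between 68.9-fold and 281-fold above the next tumour. The fast troponins, which make the thin filament respond to calcium, did likewise. Tnnt3 had 5, 1, 2882 and 10 counts (edgeR adjusted p = 2.21e-25), Tnni2 had 8, 27, 1347 and 22 (5.86e-09), and Tnnc2 had 0, 0, 1184 and 2 (7.2e-17). Tnnc2 shares 592 bases of exon with Ube2c on the other strand, yet had at most 2 counts in tumours 1, 2 and 4.

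Actn3, the actin crosslinker of fast fibre Z-discs, had 9, 8, 3217 and 3 counts (edgeR adjusted p = 4.04e-26), and Myoz1, a Z-disc protein of fast fibres, had 0, 2, 182 and 0 (3.3e-06). Both were near 0 outside tumour 3. Mybpc2, the fast myosin binding protein C, was the fast gene with the smallest gap. Its counts were 112, 544, 4357 and 28, so tumour 3 was 7.19-fold above tumour 2 (95% interval 6.57 to 7.87), and tumour 2 in turn lay well above tumours 1 and 4, at 15.7 against 2.64 and 0.681 CPM. As a group the 12 fast genes summed to 4.10, 17.7, 817 and 2.24 CPM, and most of the sum in tumour 2 was Mybpc2.

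The 5 genes of the slow fibre sarcomere were highest in tumour 3 as well, but 1 of 5 passed the test, and their median gap to the next tumour was 5.35-fold. The gene that passed was Mybpc1, the slow myosin binding protein C, which is known to be made in fast fibres too. It had 2, 4, 630 and 0 counts, 141-fold above tumour 2 in tumour 3 (95% interval 54.9 to 520; edgeR adjusted p = 6.38e-10). Myh7, the slow heavy chain shared with the heart, had 14, 6, 68 and 3 counts, 5.35-fold above the next tumour (95% interval 2.98 to 10.3; edgeR adjusted p = 0.355). Its exons overlap 3 antisense genes, among them Mhrt. The slow troponins Tnnt1, Tnni1 and Tnnc1 had 99, 97 and 62 counts in tumour 3 and 6 to 27 in the other tumours, and their edgeR adjusted p ran from 0.231 to 1. Tumour 3 was thus above the others for each slow gene beyond counting error, but for 4 of 5 the spread did not exceed that of other genes at so low a level.

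Fast and slow partners can be compared within tumour 3 per length, as CPM per kb of exon. The ratio of level was 198 for Myh4 over Myh7, 26.9 for Tnnt3 over Tnnt1, 20.3 for Tnni2 over Tnni1, 19.7 for Tnnc2 over Tnnc1 and 7.625 for Mybpc2 over Mybpc1. The fast form was the higher in all 5 pairs. The fast troponins took 95.45% of the 5671 troponin counts of tumour 3 (exact 95% interval 94.9 to 96.0), and 18.3%, 48.3% and 42.5% of 71, 58 and 80 counts in tumours 1, 2 and 4. Troponins and myosins, which are separate gene families, both placed tumour 3 first. The median level per kb in tumour 3 was 30.1 CPM for the 12 fast genes, 2.23 for the 5 slow genes and 0.2785 for the 4 embryonic or fetal genes.

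**Figure D3:**
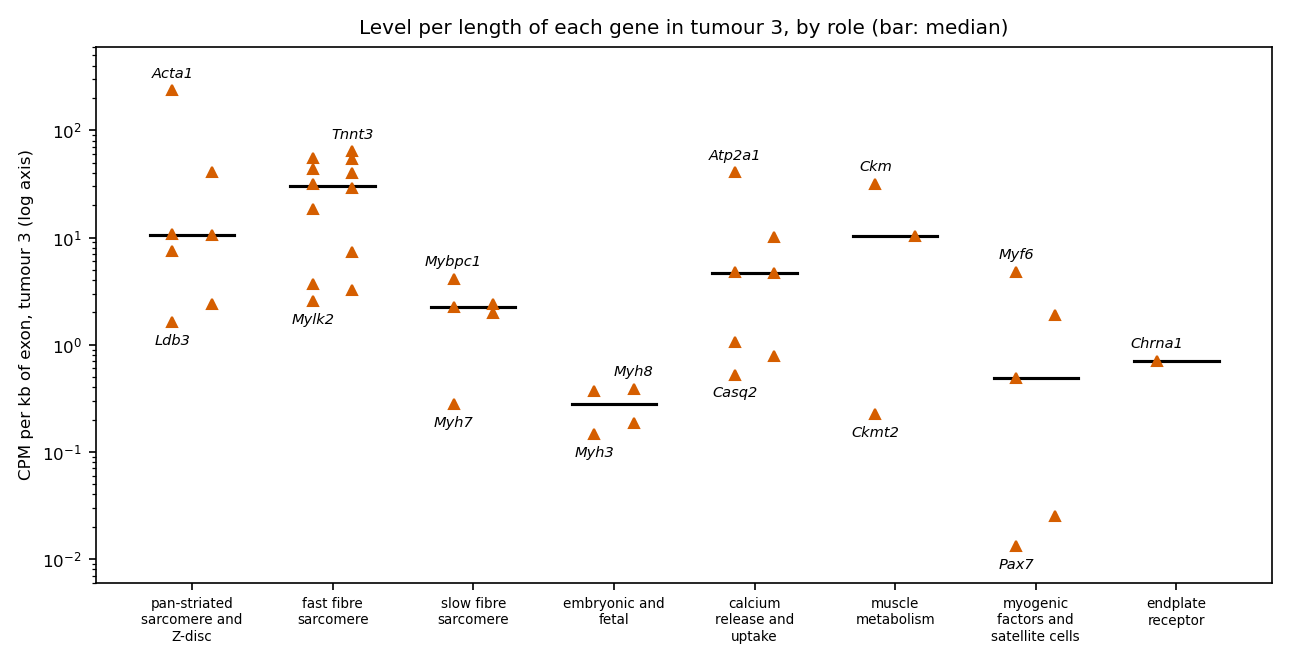
Level of each gene in tumour 3 as CPM per kb of exon (log axis), by role, with a bar for the median of the role and names for the highest and lowest gene. The fast genes run from 2.53 to 64.2 and the slow genes from 0.28 to 4.11, while the 4 embryonic and fetal genes lie between 0.146 and 0.386.

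Of the 4 embryonic and fetal genes none passed, and 2 of them were below the count minimum. Myh3, the embryonic heavy chain, had 4, 0, 34 and 0 counts. Myh8, the perinatal heavy chain, had 24, 17, 117 and 17 counts, 5.37-fold above the next tumour in tumour 3 (95% interval 3.44 to 8.72; edgeR adjusted p = 1). Both were highest in tumour 3 but rare beside the adult Myh4. Actc1, the cardiac actin that fetal skeletal muscle also uses, had 6, 10, 21 and 5 counts, against 16, 8, 13166 and 9 for its adult partner Acta1. In tumour 3, Actc1 was 0.159% of the counts of these 2 actins (exact 95% interval 0.0986 to 0.243). Chrng, the fetal subunit of the muscle acetylcholine receptor, had 0, 0, 20 and 0 counts, at least 5.98-fold higher in tumour 3 against a floor of 3 counts per library. With a count filter that asks for only 1 library, Myh3 and Chrng were tested and passed (edgeR adjusted p = 0.024 and 0.0182). Over all alternatives that tested them, the edgeR adjusted p was 0.00799 to 0.0865 and 0.0182 to 0.0248. Under that filter both entered through tumour 3, where they were high, so their passing describes these genes and does not test them.

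Of the 7 sarcomere and Z-disc genes shared by all striated muscle 6 passed. Ttn, the giant elastic protein of the sarcomere (Entrez gene 22138, chromosome 2, 76703980 to 76982557), had 85, 216, 32906 and 135 counts, the most of any of the 44 genes. It reached 854.5 CPM in tumour 3, 137-fold above tumour 2 (95% interval 120 to 157; edgeR adjusted p = 9.02e-35). With 113.59 kb of exon Ttn gathers counts by its length, and it made up 29.6% of the counts of the 44 genes in tumour 3. Per kb its level was 7.52 CPM there, and Acta1, the actin of adult skeletal muscle (Entrez gene 11459, chromosome 8, 123891758 to 123894775), was the highest of the 44 at 236 CPM per kb.

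Acta1 stood 907-fold above the next tumour in tumour 3 (95% interval 558 to 1587; edgeR adjusted p = 8.34e-50). Neb, which sets thin filament length, had 196, 150, 9684 and 176 counts (edgeR adjusted p = 4.31e-21). Tcap, which caps titin at the Z-disc, had 14, 9, 398 and 2 (edgeR adjusted p = 1.18e-04, not flagged by DESeq2). In each, tumours 1, 2 and 4 formed a low group far from tumour 3. Des, the intermediate filament of muscle, had 191, 236, 4756 and 196 counts (edgeR adjusted p = 3.05e-11). Smooth muscle also makes desmin, and tumours 1, 2 and 4 held 4.5 to 6.83 CPM of it. Actn2, the alpha-actinin of all striated fibres, had 17, 19, 276 and 15 counts and passed narrowly (edgeR adjusted p = 0.0489). This call was lost with no count filter (edgeR adjusted p = 0.0611), and DESeq2 did not flag Actn2. Over all edgeR alternatives its adjusted p ran from 0.000328 to 1.

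Ldb3, a Z-disc adaptor also known as ZASP, was the exception. It had 347, 1247, 383 and 1335 counts, so tumours 2 and 4 were high (36.1 and 32.5 CPM) and tumours 1 and 3 low (8.18 and 9.95 CPM). Its spread did not pass (edgeR adjusted p = 0.304). It was the only sarcomere gene of the 44 for which tumour 3 was not the highest.

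Of the 7 genes of calcium release and uptake 6 passed. Ryr1, the calcium release channel, had 48, 70, 5982 and 11 counts, 76.7-fold above tumour 2 in tumour 3 (95% interval 60.6 to 98.5; edgeR adjusted p = 1.13e-28). Atp2a1, the SERCA1 pump that returns calcium in fast fibres, had 21, 10, 5424 and 4, a gap of 285-fold (95% interval 186 to 460; edgeR adjusted p = 5.18e-36). These were the most abundant calcium genes, at 155 and 141 CPM in tumour 3. Cacna1s, the voltage sensor that opens Ryr1, had 2, 0, 192 and 0 counts (edgeR adjusted p = 2.37e-06). Trdn, which ties the store protein calsequestrin to the channel, had 0, 0, 321 and 0 (3.68e-09). Pvalb, the calcium buffer of fast fibres, had 0, 1, 192 and 0 (1.14e-06). Each was thus all but missing outside tumour 3.

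The calsequestrins, which store calcium, differed by isoform. Casq1, the main form of fast fibres, had 25, 24, 333 and 10 counts and passed (edgeR adjusted p = 0.024). The call was lost without tumour 4 (edgeR adjusted p = 0.0654), and DESeq2 did not flag Casq1. Over all edgeR alternatives its adjusted p ran from 0.0197 to 1. Casq2, the cardiac and slow form, had 26, 14, 52 and 17 counts and did not pass (edgeR adjusted p = 1). The share of Casq1 in the counts of both was 86.5% in tumour 3 (exact 95% interval 82.7 to 89.8), and 49.0%, 63.2% and 37.0% in tumours 1, 2 and 4.

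Of the 3 metabolic genes Ckm and Ckmt2 were highest in tumour 3 and Mb was not. Ckm, the muscle creatine kinase that buffers ATP, had 6, 5, 3336 and 2 counts, 599-fold above tumour 2 in tumour 3 (95% interval 256 to 1845; edgeR adjusted p = 6.96e-29). Its mitochondrial partner of striated muscle, Ckmt2, had 0, 0, 13 and 0 counts, and per kb Ckm was 139-fold higher in level than Ckmt2 in tumour 3. Mb, the oxygen store myoglobin, had 385, 848, 562 and 678 counts, or 9.07, 24.5, 14.6 and 16.5 CPM. Tumour 2 was highest, tumour 3 lay among the others, and the spread did not pass (edgeR adjusted p = 1). The exons of Mb overlap those of Apol6 and an antisense gene on the other strand.

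The 5 myogenic and satellite cell factors had 0, 0, 381 and 2 counts in sum, so all but 2 of their reads came from tumour 3. Myf6, the factor that stays on in adult fibres, had 0, 0, 233 and 0 counts, at least 69.7-fold higher in tumour 3 against the floor of 3 counts per library (edgeR adjusted p = 5.14e-08). Myog, which starts fibre formation, had 0, 0, 108 and 1, a ratio of 115 over tumour 4 (95% interval 20.3 to 4596). It passed (edgeR adjusted p = 2.79e-05) but was not flagged by DESeq2. Myod1, an early muscle determination factor, had 0, 0, 35 and 0, at least 10.5-fold higher in tumour 3. Below the count minimum of the main test, Myod1 passed when only 1 library had to reach it (edgeR adjusted p = 0.00292). Over all alternatives that tested it, the edgeR adjusted p was 0.00271 to 0.00805. With counts in tumour 3 alone, Myod1 entered each of these through the tumour in which it was high. Its passing therefore describes the gene and does not test it.

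Myf5 and Pax7, which mark muscle precursors and satellite cells, were at the limit of detection. Myf5 had 0, 0, 2 and 0 counts and Pax7 had 0, 0, 3 and 1, a ratio of 3.20 between tumours 3 and 4 with a 95% interval of 0.257 to 168. No difference between tumours was detectable for either at this depth. Myf5 lies 5.9 kb from Myf6 on chromosome 10, and the 2 genes had 2 and 233 counts in tumour 3. The order per kb in tumour 3 was Myf6 at 4.79 CPM, Myog at 1.88, Myod1 at 0.488, Myf5 at 0.0249 and Pax7 at 0.0133.

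Chrna1, the acetylcholine receptor subunit present in both fetal and adult endplates, had 16, 8, 119 and 10 counts, 8.20-fold above the next tumour in tumour 3 (95% interval 4.85 to 14.8). It was highest in tumour 3 beyond counting error but did not pass (edgeR adjusted p = 0.304).

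Other genes of muscle, 140 in 7 lists of neighbouring functions, were then counted in the same test. Of these 118 were tested and 37 passed, 35 of them with tumour 3 highest. Of all genes tested 4.87% passed, and 1.95% passed with tumour 3 highest. In tumours 1 to 4, 27, 31, 4 and 22 of the 140 genes had 0 counts. Some genes thus entered the test only through tumour 3, such as Lmod2 with 0, 0, 244 and 0 counts. The lists were also chosen with earlier results of these data known. The count of 37 therefore describes these lists and does not test them. The sarcomere and Z-disc list had the most, with 19 of 35 tested. Calcium and triad genes had 4 of 14, metabolism 6 of 21, dystrophin complex and membrane genes 4 of 14, the neuromuscular junction 1 of 7, myogenic regulation and fusion 1 of 17 and satellite cell genes 2 of 10. The count for myogenic regulation is near that of all genes. The most abundant gene of each list (Tpm1, Atp2a2, Fbxo32, Utrn, Agrn, Tcf12 and Sdc4, all used by many cell types) did not pass, with at most 1.46-fold between the highest and the next tumour.

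The smallest p belonged to Xirp2, an actin binding protein of the fibre's ends and Z-discs, with 6, 2, 2609 and 0 counts (edgeR adjusted p = 2.83e-26). Its relative Xirp1 had 0, 1, 498 and 2 counts (2.45e-09), Nrap 21, 23, 1502 and 35 (2.05e-08), the thin filament protein Lmod2 0, 0, 244 and 0 (3.58e-08) and the Z-disc protein Myot 0, 0, 284 and 1 (5.41e-08), each by edgeR adjusted p. Flnc, the muscle filamin, had 194, 179, 3582 and 402 (2.5e-07). Sln, sarcolipin, a small inhibitor of the SERCA pump, had 0, 0, 340 and 0 counts (2.22e-09). The muscle phosphoglycerate mutase Pgam2 had 0, 0, 226 and 1 (3.3e-07), the ubiquitin ligase Trim63 2, 0, 353 and 5 (7.67e-07), and Art1 0, 0, 149 and 0 (1e-06). Tumour 3 stood clear of the other 3 in all of these.

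A pair of developmental genes joined them. Pax3, a paired-box factor of embryonic muscle precursors among other cells, had 4, 5, 626 and 5 counts. Tumour 3 was 112-fold above the next tumour (95% interval 47.9 to 347, edgeR adjusted p = 1.97e-07). Pax3 was thus far above its relative Pax7, which had 3 counts in tumour 3. Which cells made Pax3 was not tested. Megf10, a receptor made by satellite cells among other cells, had 208, 207, 6202 and 112 counts, 26.9-fold above the next (95% interval 23.4 to 31.0; edgeR adjusted p = 3.1e-16). The other satellite cell gene that passed was Spry1, an inhibitor of growth factor signalling, at 48.8, 41.1, 120.0 and 12.8 CPM, 2.46-fold above the next tumour in tumour 3 (edgeR adjusted p = 0.0102). Of the untested satellite cell genes Cdh15, Calcr and Chodl had 15, 1 and 2 counts in tumour 3.

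**Figure D4:**
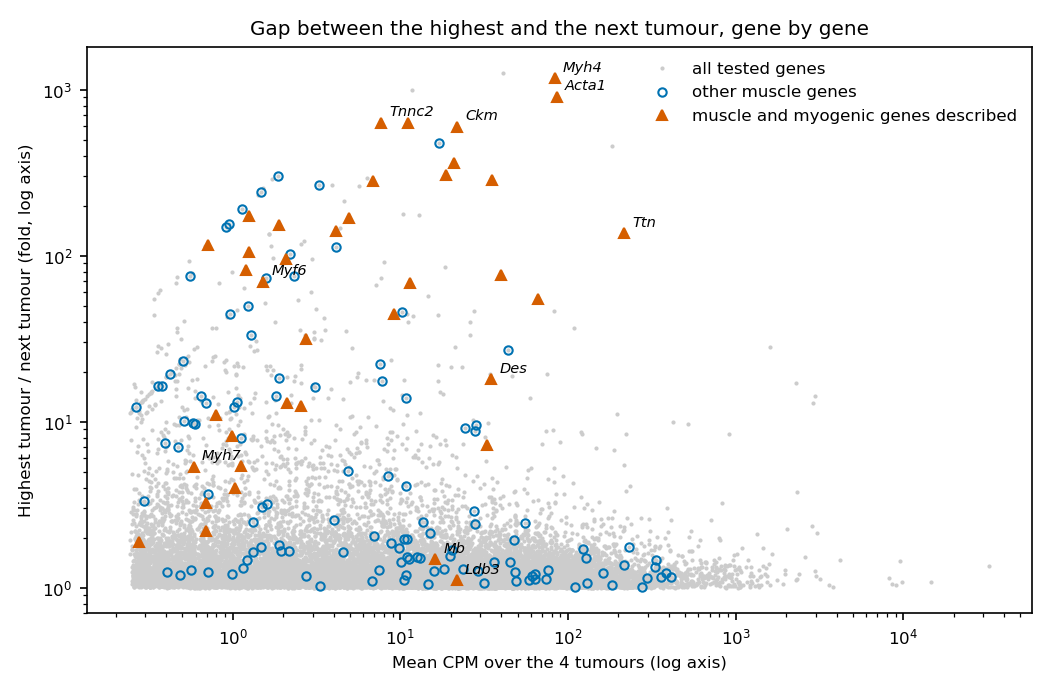
Fold between the highest and the next tumour (log axis) against mean CPM over the 4 tumours (log axis) for 17683 tested genes, with the 38 tested muscle and myogenic genes as triangles and the other muscle genes as open circles (where the next tumour had 0 counts, its floor of 3 counts was used). The grey points near the bottom are the bulk of genes, at a median of 1.20-fold, while Myh4 and Acta1 lie at 1177 and 907 and Mb and Ldb3 sit among the bulk.

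Markers of other cell types were set beside the muscle genes. Of 6 tendon and sheath genes all 6 were highest in tumour 3, as were 29.9% of all tested genes. The 6 summed to 37.8, 19.7, 157 and 55.8 CPM. Thbs4, a matrix protein of tendon, passed at 17.8, 4.86, 101 and 42.5 CPM (edgeR adjusted p = 4.24e-05). It made up most of the sum of tumour 3. Scx, Mkx, Comp and Fmod did not pass, and Tnmd was below the count minimum. Adipocyte genes summed to 27.7, 78.1, 112 and 32.7 CPM, of which Fabp4 was 15.1, 25.9, 90.6 and 7.91 (edgeR adjusted p = 0.00112). However, 8 of the 10 were highest in tumour 2. Among these was Cfd, which also passed, at 0.353, 8.31, 0.364 and 0.438 CPM (edgeR adjusted p = 0.016). The part of either cell type in the muscle values was not tested.

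Heart genes summed to 17.8, 16.3, 45.8 and 11.7 CPM, and none of the 4 tested passed. Nppa was at 0 in all 4 tumours and Myh6 and Myl7 at 0 to 2 counts. Tnnt2 and Myl4, which developing skeletal muscle also makes, had 1286 and 321 counts in tumour 3. In the other tumours they had 165 to 326 and 26 to 37 (edgeR adjusted p = 0.22 and 0.196). Tnni3 and Tbx20, also tested, were higher in tumours 1 and 2. Tnni3 was at 6.22, 7.81, 1.82 and 1.90 CPM and Tbx20 at 2.85, 2.63, 1.43 and 1.34. Of the 12 heart genes 5 were highest in tumour 3. Smooth muscle and myoepithelial genes summed to 243, 329, 429 and 392 CPM. The 2 of 12 that passed, the keratins Krt5 and Krt14, were highest in tumour 4. They gave 86.9 and 89.5 CPM of its sum, against 0.675 and 28.2 CPM in tumour 3. Of the 12 genes 6 were highest in tumour 3, 4 in tumour 4 and 2 in tumour 2. Brown adipocyte genes summed to 23.1 CPM in tumour 3 and 8.51 to 11.2 in the others, with Elovl3 at 0 throughout. Ppargc1a gave 17.6 CPM of the sum in tumour 3. Ucp1 had 0, 1, 0 and 0 counts, and Cidea was highest in tumour 4, at 4.84 CPM against 2.13 in tumour 3. Nerve and Schwann cell genes summed to 69.02 to 94.9 CPM with tumour 3 lowest, though 4 of the 7 genes were highest in tumour 3. Per kb of exon their sum was highest in tumour 3, at 23.6 CPM against 17.8 to 19.4, and none passed. Epithelium, pericyte, fibroblast, endothelium, leukocyte and skin keratinocyte lists had no gene past the test. In the pericyte, fibroblast, endothelium and leukocyte lists the sum of tumour 3 lay between the lowest and highest of the other tumours, and the skin keratinocyte sum was 5.48 CPM against 3.72 to 4.20.

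**Figure D5:**
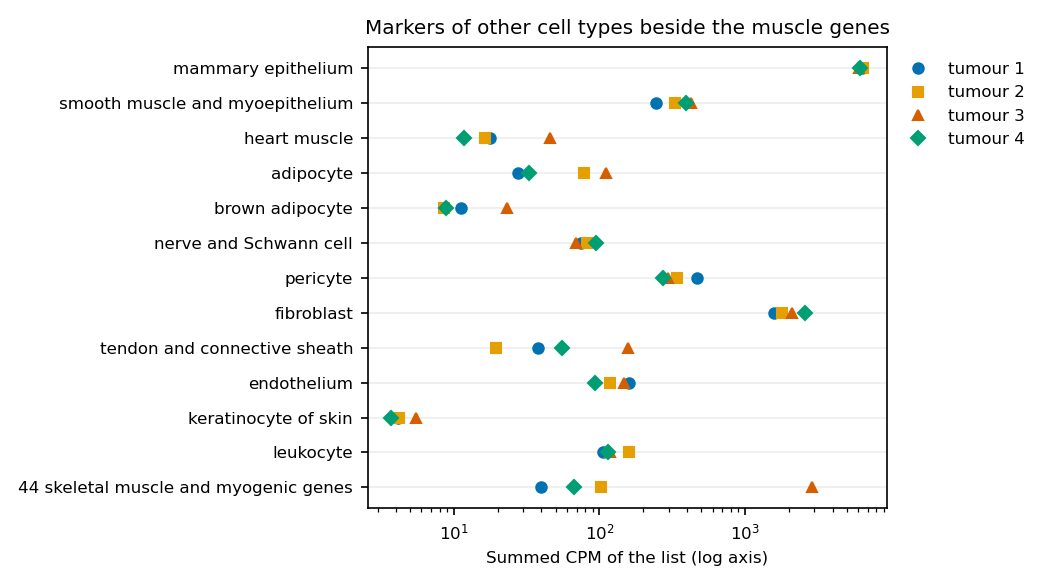
Summed CPM (log axis) of 12 marker lists of other cell types and of the 44 skeletal muscle and myogenic genes in the 4 tumours. The muscle sum is 2885 CPM in tumour 3 and 39.5 to 103 in the others, a wider gap than in any of the 12 lists, of which the tendon list is the next (157 against 19.7 to 55.8).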

How the data were processed

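Poly-A RNA of 4 MMTV-R26Met mammary tumours was sequenced from random-primed libraries as paired reads on a NovaSeq X, per the labels' protocols. The authors deposited 1 table of raw counts per gene with no normalization. FastQC and the builds GRCm38 and mm10 are named in the submitters' processing notes. Neither aligner, counter nor strand setting is given in the sources used here. Genes that overlap another on the opposite strand (15 of the 44 members) and close relatives carry uncertain counts. Of the per-sample columns 0 went unused.

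Entrez gene numbers were matched to RefSeq symbols (GRCm38.p6) for 24480 of 28440 rows (86.08%), which held 97.86% of the counts. Rows without a symbol stayed in library sizes and tests. Exon lengths came from GENCODE (GRCm38). Genes with at least 40 counts in total entered edgeR 4.0.16 (R 4.3.3): TMM scaling, a negative binomial fit with an intercept alone and the trended dispersion, the deviance set against the chi-square distribution, and Benjamini-Hochberg adjustment over all 17683 genes (threshold 0.05). With 1 group no contrast can be tested. A total was used because a minimum in every library removes genes present in 1 tumour. The common biological coefficient of variation was 0.514. Folds compare the highest with the next tumour, with exact binomial 95% intervals, or a floor of 3 counts per library against 0. Promoter motifs were found by exact match. The fit was tested on simulated data.

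Values in every tumour were given by rule for the myosin heavy chains, the myogenic factors and Pax7, each member past the test, and the highest member of each role. Of other muscle genes the rule took 12 by p and the most abundant gene of each list, and of each marker list the most abundant gene and the gene with the smallest p, of which only those that bear on muscle are printed. Other genes were named after their values were seen. The members and lists were chosen with earlier results of these data known. Alternatives were RLE and unscaled libraries, 4 other count filters, Holm adjustment, DESeq2 1.42.0 dispersion outliers, each tumour left out, role groups without their most abundant member or as mean log2 CPM, and other denominators of the fast shares.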

Additional observations from a re-analysis of the deposited data

Results flagged for a closer look

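In 34 of the 38 tested muscle genes, and in the summed CPM of the 44 genes and of each of the 8 role groups, the highest tumour lay so far from the other 3 that its gap took up nearly the whole range of the 4 values (above Dixon's 95% critical value). It was tumour 3 in every case. For normally distributed values, chance gives such a gap in about 1 in 20 groups of samples. The share of all tested genes with such a gap was not counted, so the 34 describe these genes and do not test them. The genes were also chosen together, so their gaps are not separate pieces of evidence. All values here are the CPM of tumour 3. The sums were 2885 for all 44 genes, 1599 for pan-striated, 817.4 for fast, 24.83 for slow, 4.986 for embryonic and fetal, 324.5 for calcium, 101.6 for metabolism, 9.894 for myogenic and satellite cell genes and 3.09 for the endplate receptor, which is Chrna1 alone.

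The pan-striated genes with such a gap were Ttn 854.5, Neb 251.5, Acta1 341.9, Actn2 7.167, Tcap 10.34 and Des 123.5. The fast genes were Myh1 44.54, Myh2 19.63, Myh4 332.6, Myl1 27.32, Mylpf 43.84, Mylk2 7.479, Tnnt3 74.84, Tnni2 34.98, Tnnc2 30.75, Actn3 83.54, Mybpc2 113.1 and Myoz1 4.726. The slow genes, of which only Mybpc1 passed the edgeR test, were Myh7 1.766, Tnnt1 2.571, Tnni1 2.519, Tnnc1 1.61 and Mybpc1 16.36. Among embryonic and fetal genes it was Myh8 at 3.038. The calcium genes were Ryr1 155.3, Cacna1s 4.986, Trdn 8.336, Casq1 8.648, Atp2a1 140.9 and Pvalb 4.986. The remaining genes were Ckm 86.63, Myog 2.805, Myf6 6.051 and Chrna1 3.09. Ldb3, Actc1, Casq2 and Mb had no such gap.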

How the results depend on the processing

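With all 4 tumours, 28 muscle genes passed, and the count was 28 under RLE or unscaled libraries and 26 under Holm adjustment. The dispersion flag of DESeq2, which is not a test, marked 22 of the 28 (not Actn2, Casq1, Mylk2, Myog, Myoz1 and Tcap). The edgeR count was 31 with a filter asking for 1 library and 30 with no filter. It was 16 at a mean of at least 5 CPM (18 tested) and 7 with a filter in all libraries (13 tested), where fewer muscle genes could be tested. Leaving out each tumour in turn gave 1 to 29 muscle genes, and the 1 was without tumour 3. Over all genes the edgeR count was 861. It was 493 at a mean of at least 5 CPM, 291 under Holm adjustment and 565 to 650 with a tumour left out. The flag of DESeq2 marked 145 genes. The cause of these differences was not tested.

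The fold of summed CPM from the lowest to the highest tumour, on the log2 scale, depended on tumour 3. With each tumour left out in turn it ran from 1.419 to 6.292 for pan-striated, 2.984 to 8.513 for fast, 0.5909 to 4.423 for slow, 0.5819 to 3.22 for embryonic and fetal, 1.753 to 8.311 for calcium, 1.422 to 3.463 for metabolism, 0.2966 to 7.129 for myogenic and 0.7034 to 3.739 for endplate genes, the lowest always without tumour 3. Without Ckm the metabolism fold was 1.436 with tumour 2 highest, a reversal. As mean log2 CPM the metabolism fold was 5.021 with a prior count of 0.5, and the myogenic fold 2.864 with a prior count of 5, where most values are near 0.

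In tumours 1 to 4 the fast share of myosin heavy chain counts became 56.25, 45.45, 99.56 and 57.14% over adult genes alone. The fast share of troponin counts was 33.33, 11.11, 96.68 and 62.5% for Tnnt3 and Tnnt1. For Tnnc2 and Tnnc1 it was 0% in tumours 1 and 2 (0 of 21 and of 11 counts) and 12.5% in tumour 4. For Tnni2 and Tnni1 it was 71.05% in tumour 2 and 93.28% in tumour 3. No paired analysis was possible because the tumours form 1 group. Every value for tumour 3 rests on 1 library, and members with fewer than about 40 counts (Myf5, Pax7, Ckmt2, Chrng, Myod1 and Myh3) are limited by depth.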

Other observations

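Some genes tied to mature endplates and to fibre fusion were scarce in tumour 3 beside its sarcomere genes. Chrne, the receptor subunit that replaces Chrng in adult endplates, had 0, 0, 0 and 1 counts in tumours 1 to 4. Chrnd, a subunit of both receptor forms, had 3, 0, 31 and 4. Musk, the kinase that gathers receptors at the endplate, had 0, 1, 82 and 9 (edgeR adjusted p = 0.00343). The fusion gene Mymk had 1, 0, 2 and 0 counts, and Mymx had 0 in all 4 tumours.

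A few genes of the muscle lists peaked elsewhere, and which cells made them was not tested. Fabp3, a fatty acid binding protein of heart and oxidative muscle, was at 0.448, 2.75, 1.90 and 38.4 CPM, highest in tumour 4 (edgeR adjusted p = 4.38e-06). Sgcd, a sarcoglycan also made in smooth muscle, was at 15.4, 0.347, 3.06 and 0.778 CPM, highest in tumour 1 (edgeR adjusted p = 0.00587). The ubiquitin ligases of muscle wasting parted: Trim63 was at 9.17 CPM in tumour 3 and no higher than 0.122 elsewhere, whereas Fbxo32 was lowest in tumour 3, at 124.5 CPM against 193 to 212.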
